A study of Mus musculus with 20 samples.

Results

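Dyneins are the motors that walk toward the minus ends of microtubules. Apart from the antisense transcript Dnah2os, the 43 mouse genes described here are named for parts of dyneins or for factors that help to assemble them. They were found by name among the 45705 genes of the table, as every gene whose symbol starts with Dnah, Dnai, Dnaic, Dnal, Dnaaf, Dync or Dynl followed by its number or letter, without pseudogene names. The 43 Ensembl entries carry 41 names, because Dnah14 is listed under 3 identifiers. By name, 27 were axonemal (Dnah, Dnaic, Dnal and Dnaaf, with Dnah2os counted among them) and 16 were cytoplasmic (Dync and Dynl).

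Axonemal dyneins sit in rows along the microtubule doublets of motile cilia and flagella. Outer arms power the beat and inner arms shape it. Each arm holds heavy chains, which are the motor subunits, with intermediate and light chains at its base, and is put together in the cytoplasm by assembly factors before it enters the cilium. Cytoplasmic dynein-1 carries cargo, positions nuclei and organises the spindle in nearly every cell, and dynein-2 moves material from the tip of a cilium back to the cell body. Some light chains are shared by these complexes, so that a name that starts with Dynl does not tie a gene to the cytoplasm alone. Around the lateral ventricles, ependymal cells carry tufts of motile cilia, while neural stem cells of the subventricular zone carry a primary cilium, which does not beat.

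The libraries came from the periventricular tissue of Swiss Webster mouse pups at postnatal day 5, dissociated with liberase and sorted by flow cytometry for CD15 (Lewis-X), CD133, CD140a and NG2. There were 5 sorted populations, the Neural Stem Cell (NSC) and 4 kinds of Neural Progenitor, labelled BNAP/GRP1, GRP2/MP3, GRP3 and PFMP, with 4 libraries each. Where values of the progenitors are given in a row, they stand in that order. All were untreated animals of 1 stock, and per the study's methods the pups of a litter, males and females, were pooled. A number after a population, as in NSC 3, is the batch on the label of that library, from 1 to 4. The labels do not say what a batch is, and p-values measure only the spread between these libraries. The question was how the transcripts of each progenitor differ from those of the stem cell. Values are RPKM, which divide the reads of a gene by its length and by the size of the library. Per the study's methods, polyA RNA was amplified before the libraries were made. Whether coverage was even along long and short genes was not tested, so comparisons of level between genes are rough.

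Several libraries stood apart, and this bears on every value below. RPKM sums ran from 955067 to 2407640. Depth relative to BNAP/GRP1 1 was estimated as the commonest ratio of its RPKM to the library's, over genes above 0 in both. This estimate was least in BNAP/GRP1 4 at 0.0395 and greatest in BNAP/GRP1 3 at 1.41. The median gene stood at 8.30 RPKM in BNAP/GRP1 4 and at no more than 2.02 RPKM in any other library. The absolute depth is unknown, so values carry no counting interval and a 0 does not show that a gene is off. All 5 libraries of batch 3, NSC 3 included, listed the airway secretory gene Scgb1a1 at 839 to 965 RPKM, against at most 13.6 RPKM in the other libraries. They were also close to each other across populations. Over genes of at least 10 RPKM, 85.3% to 86.8% lay within 1.2-fold between any pair of batch 3 progenitors and 74.6% to 76.4% between NSC 3 and a batch 3 progenitor, against 14.1% to 34.4% within the other batches. The population labels of batch 3 therefore separate libraries that were much alike, and the values without batch 3 are given beside the counts. These are bulk samples, in which fewer cells of a type and less RNA per cell cannot be told apart.

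Axonemal dynein genes were higher in NSC than in most progenitor libraries, while the cytoplasmic ones overlapped. The median of the 27 axonemal genes was 5.41, 7.78, 1.44 and 7.54 RPKM in NSC 1 to 4. It was 0.00697 to 1.57 RPKM in 15 of the 16 progenitor libraries, from the lowest in PFMP 3 to the highest in GRP3 4, and 7.70 RPKM in BNAP/GRP1 4. Axonemal genes at 1 RPKM or more numbered 21, 22, 17 and 25 of 27 in NSC 1 to 4. They numbered 4 to 13 in the progenitor libraries other than GRP3 4 with 21 and BNAP/GRP1 4 with 27. The median of the 16 cytoplasmic genes was 38.8, 63.8, 34.5 and 43.1 RPKM in NSC 1 to 4 and between 10.98 and 46.2 RPKM in the progenitor libraries, with the lowest in BNAP/GRP1 4. With BNAP/GRP1 4 set aside, NSC 1, 2 and 4 had axonemal medians above every progenitor library and NSC 3 lay just below GRP3 4, whereas the cytoplasmic medians of NSC 1, 3 and 4 lay inside the progenitor range.

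**Figure D1:**
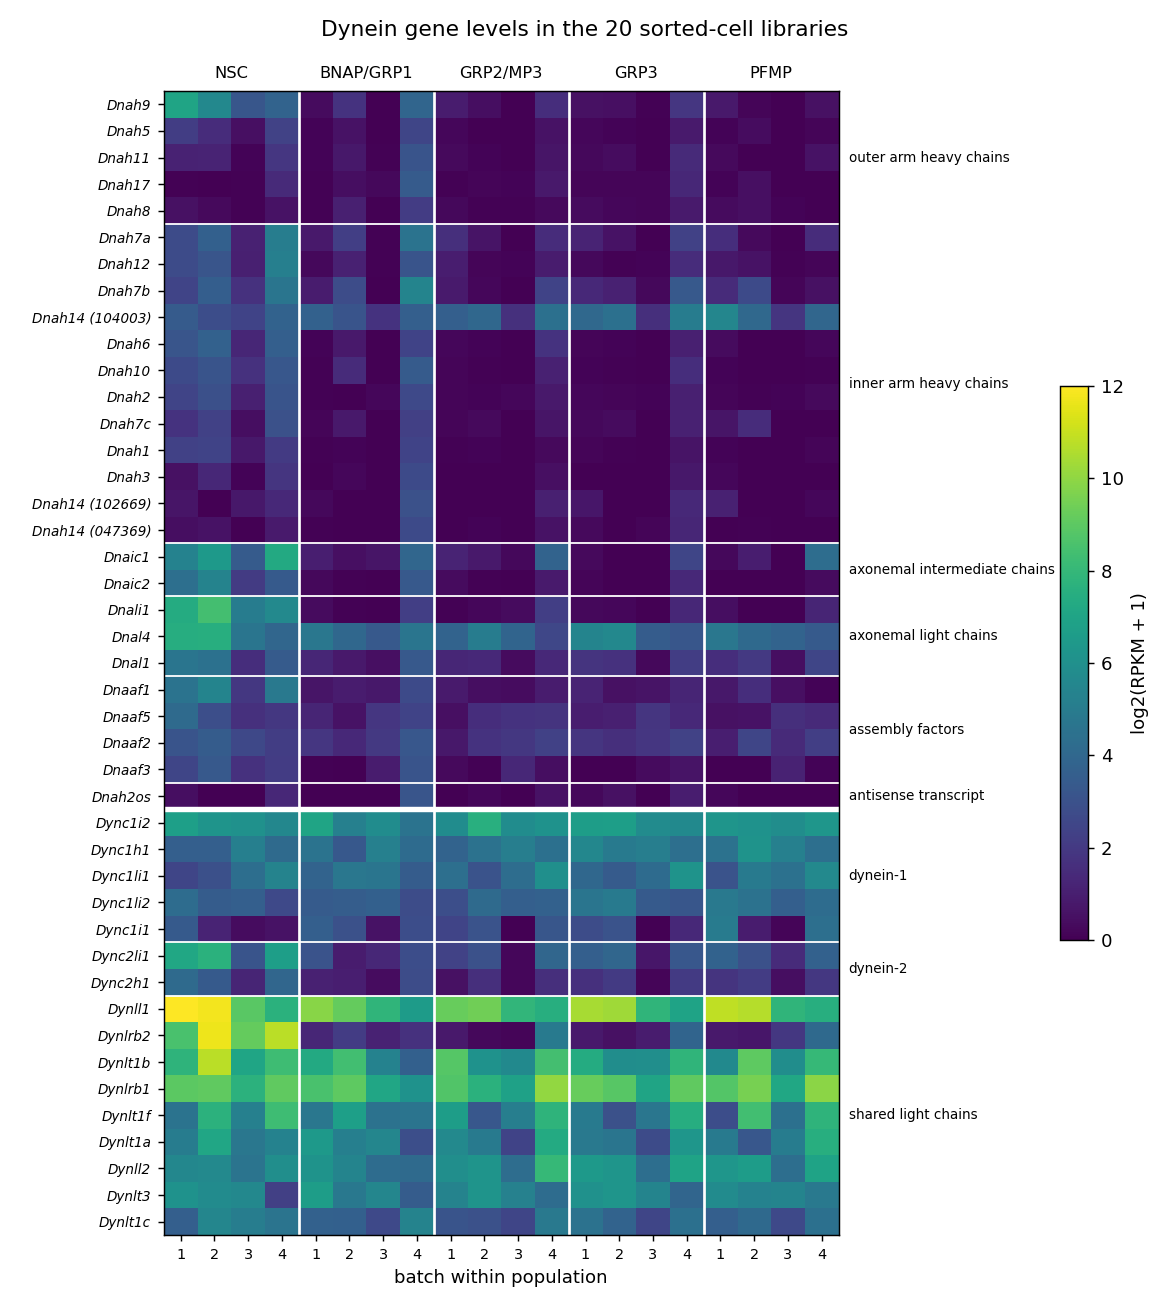
Level of each of the 43 dynein genes in each of the 20 libraries, drawn as log2(RPKM + 1) from dark (low) to bright (high), with genes grouped by role, axonemal ones above the thick line, and libraries by population and batch. The axonemal genes are brighter in NSC 1, 2 and 4 and in BNAP/GRP1 4, whose axonemal median was 7.70 RPKM, than in other libraries, while most cytoplasmic genes are bright in every population.

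Differences between a progenitor and NSC were taken on the log2(RPKM + 1) scale, which understates the change of low genes, and all 4 comparisons share the same NSC libraries. Over all 27 axonemal genes, tested or not, the median difference was −1.22, −1.88, −1.57 and −1.88. Over the 16 cytoplasmic genes it was −0.71, −0.43, −0.54 and −0.18. The median of all 27614 genes tested was 0.38, −0.08, 0.05 and −0.20. Below 0 lay 22, 26, 23 and 26 of the 27 axonemal genes (81.5%, 96.3%, 85.2% and 96.3%) and 12, 9, 9 and 8 of the 16 cytoplasmic genes (75%, 56.2%, 56.2% and 50%), beside 31.8%, 57.7%, 44.5% and 63% of the genes tested. These are descriptions of the lists and carry no test.

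A gene entered the limma fit when 4 or more of the 20 libraries had it at 1 RPKM or above, and 38 of the 43 members passed. Not tested were Dnah3, Dnah8, Dnah17, the antisense transcript Dnah2os and 1 of the 3 Dnah14 entries (ENSMUSG00000047369). Another 9 members, Dnah1, Dnah2, Dnah5, Dnah6, Dnah7c, Dnah11, Dnah12, Dnaic2 and Dnaaf3, would not have passed on the progenitor libraries alone, so a count over the tested members leans toward genes that are high in NSC. With that limit, limma called 2 axonemal genes lower in BNAP/GRP1 than in NSC at an adjusted p under 0.05 (Dnaaf1 and Dnali1), where 0.76% of all genes tested were called lower. In GRP2/MP3 it called 4, which added Dnah9 and Dnaic2, against 1.12% of all genes. In GRP3 it called 6, which added Dnah6 and Dnaic1, against 1.04%. In PFMP it called 5, Dnaaf1, Dnah6, Dnah9, Dnaic2 and Dnali1, against 1.14%. Of the cytoplasmic genes 1 was called lower in each progenitor, and each time it was Dynlrb2.

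No member was called higher than NSC in any progenitor by limma, and none had an unadjusted p under 0.05 in that direction. Over all genes the share called higher was 0%, 0%, 0.0109% and 0.00362% in BNAP/GRP1, GRP2/MP3, GRP3 and PFMP. At an unadjusted p under 0.05, 13, 17, 16 and 17 axonemal and 4, 3, 3 and 3 cytoplasmic genes were lower, beside 4.03%, 4.92%, 4.36% and 5.08% of all genes tested. When the mean of the 4 progenitors was set against NSC, 11 axonemal genes were lower (Dnaaf1, Dnaaf3, Dnah1, Dnah2, Dnah6, Dnah9, Dnah10, Dnah12, Dnaic1, Dnaic2 and Dnali1), with 2 cytoplasmic ones (Dync2li1 and Dynlrb2). Of all genes 1.96% were called lower and 0.0217% higher. Among the 11, Dnaaf3, Dnah1, Dnah2, Dnah6, Dnah12 and Dnaic2 would not have passed the filter on the progenitor libraries alone. The limit from the filter also holds for the counts and the single calls of the fits below.

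The batch number is shared by 1 library of each population, and a fit with the batch as a replicate block called more members. The axonemal count became 7, 13, 11 and 11 in BNAP/GRP1, GRP2/MP3, GRP3 and PFMP and 16 for the mean of the progenitors, beside 2.02%, 2.91%, 2.33%, 2.61% and 4.14% of all genes called lower. The cytoplasmic count became 3, 3, 2 and 2, and 3 for the mean, as Dync2li1 joined Dynlrb2 in every progenitor and Dync2h1 joined in BNAP/GRP1 and GRP2/MP3. No member was called higher with the block, where 0.0652%, 0.174%, 0.275%, 0.185% and 0.225% of all genes were. Without batch 3, in an alternative chosen after the data were seen, the fit with the block called 3, 10, 8 and 9 axonemal and 2, 3, 2 and 2 cytoplasmic genes lower, beside 1.45%, 2.19%, 1.9% and 2.11% of all genes. Without batch 3 and with no block, 2, 5, 6 and 5 axonemal genes and 2 cytoplasmic ones in each progenitor were lower, beside 1.01%, 1.51%, 1.37% and 1.52%.

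The axonemal counts also moved with single libraries, as did the share of all genes called lower. Without NSC 1 they were 1, 2, 1 and 4, without NSC 2 they were 1, 1, 1 and 2, without NSC 3 they were 6, 11, 9 and 10, and without NSC 4 they were 1, 4, 3 and 4. The share of all genes was 0.42%, 0.666%, 0.637% and 0.775% without NSC 1 and 0.319%, 0.547%, 0.536% and 0.641% without NSC 2. It was 1.39%, 1.98%, 1.79% and 2.0% without NSC 3 and 0.547%, 0.847%, 0.797% and 1.02% without NSC 4. The BNAP/GRP1 count was 1 without BNAP/GRP1 1, 2 or 3 and 10 without BNAP/GRP1 4, beside 0.377%, 0.424%, 0.373% and 1.58% of all genes. The GRP2/MP3 count was 3, 2, 2 and 6 and the GRP3 count 2, 1, 1 and 5 without their own libraries 1 to 4, beside 0.659% to 1.03% and 0.587% to 0.902% of all genes. The PFMP count was 4, 4, 4 and 5 without its own, beside 0.779% to 0.949%. The cytoplasmic count was 2, 3, 2 and 2 without NSC 3 and 2 in BNAP/GRP1 without BNAP/GRP1 4. Without batch 4 in every population the counts were 8, 9, 9 and 8, beside 1.34% to 1.46% of all genes, and without batch 1 or batch 2 they were 0, 1, 1 and 1, beside 0.0579% to 0.243%. For the mean of the progenitors, 6, 5 and 6 axonemal genes and 1 cytoplasmic gene were called without NSC 1, 2 and 4, beside 1.19%, 1.0% and 1.48% of all genes.

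**Figure D2:**
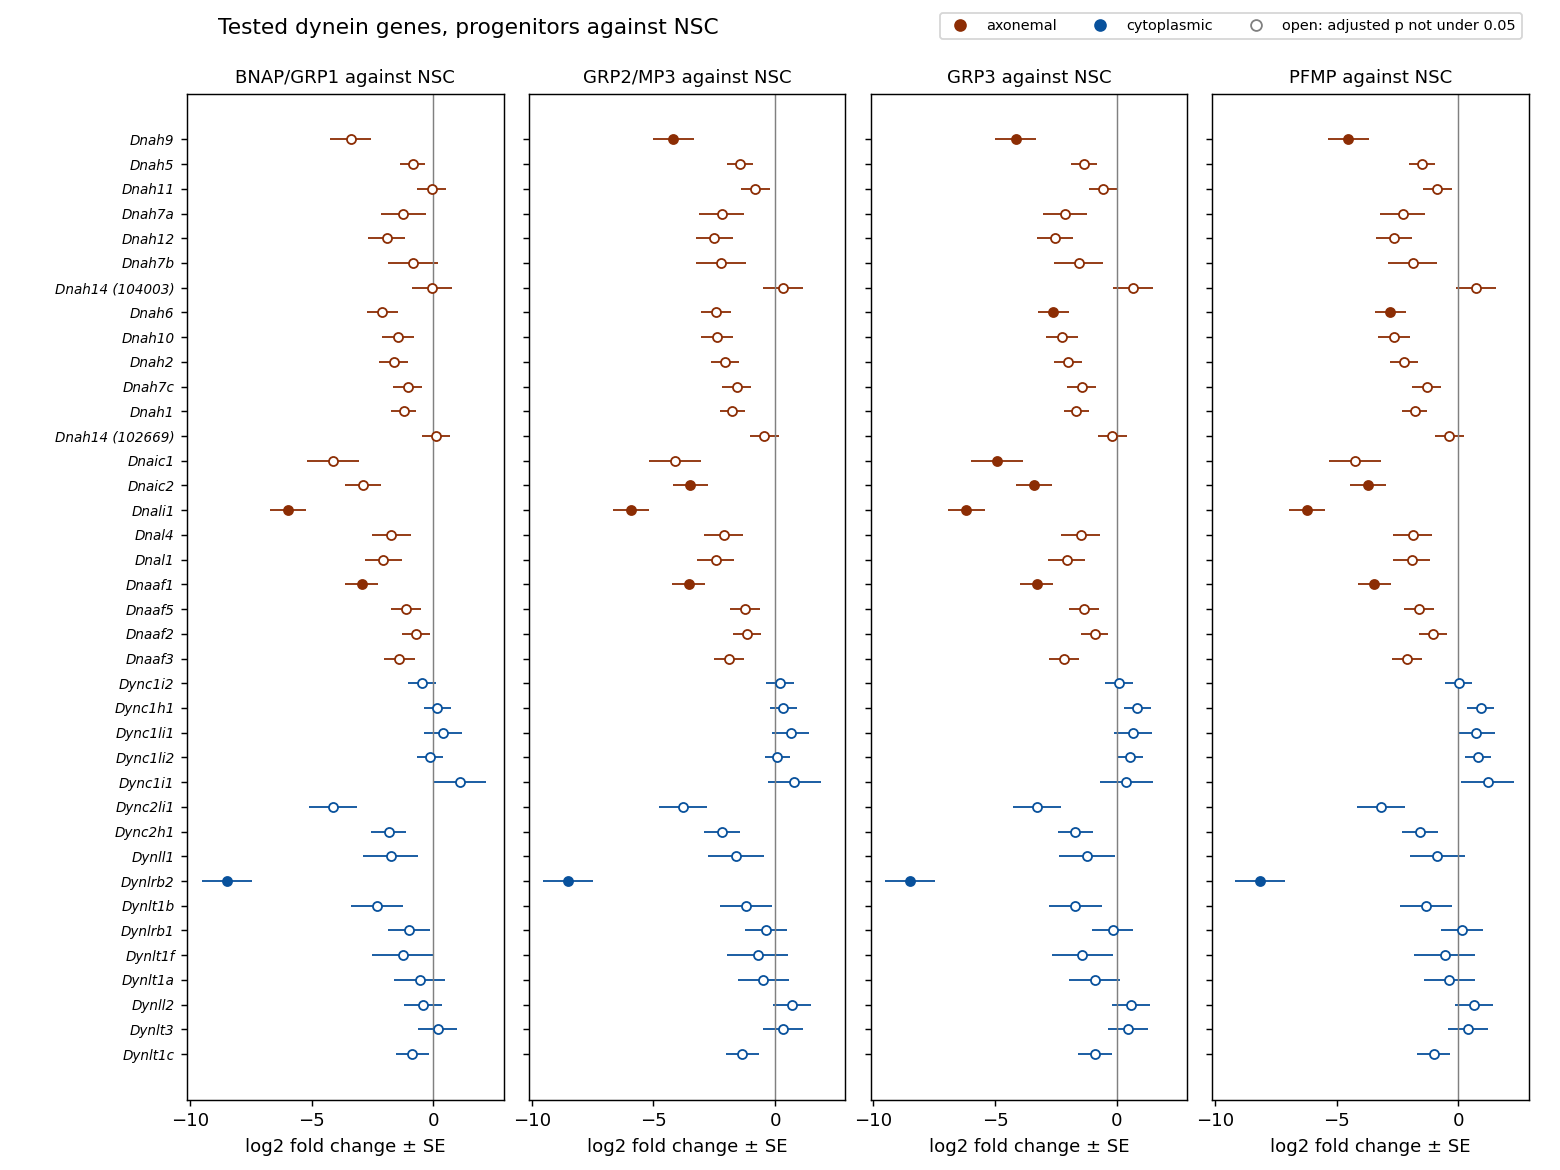
Fitted log2 fold change of each tested dynein gene in each progenitor against NSC, with the standard error as a bar, grouped by role; filled points had an adjusted p under 0.05 in limma's fit. Dynlrb2 and Dnali1 stand farthest below 0, between −8.49 and −5.92, and the 5 dynein-1 subunits lie near 0, between −0.47 and 1.21.

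The member with the widest gap was Dynlrb2, a light chain of the roadblock family shared by dynein complexes, at chr8:116504974-116515915 on the plus strand (GRCm38, GENCODE vM21). It was listed at 370.4, 3292, 564 and 1741 RPKM in NSC 1 to 4, with a mean of 1492 ± 1344 (SD, n = 4). In the progenitors it lay at 1.48, 3.36, 1.21 and 2.27 RPKM in BNAP/GRP1 1 to 4, at 0.771, 0.192, 0.109 and 29.8 in GRP2/MP3, at 0.787, 0.465, 0.886 and 13.5 in GRP3 and at 0.762, 0.653, 2.81 and 16.0 in PFMP. Every NSC library stood above every progenitor library, NSC 3 included, and in GRP2/MP3, GRP3 and PFMP the library of batch 4 was the highest of its population. The log2 fold change was −8.46, −8.49, −8.49 and −8.14 (SE 1.03 in each), with limma's adjusted p of 0.00023, 0.00011, 0.0001 and 0.00011, and the call was kept in 21 of 21 alternatives.

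Its paralog Dynlrb1, at chr2:155236533-155250277 on the plus strand, was listed at 502, 531, 208 and 536 RPKM in NSC 1 to 4. It ranged from 69.4 to 526 RPKM in BNAP/GRP1, from 117 to 1080 in GRP2/MP3, from 127 to 587 in GRP3 and from 140.3 to 978 in PFMP. Those ranges overlapped with NSC in all 4 progenitors. Its log2 fold changes were −0.99, −0.37, −0.17 and 0.16 (SE 0.85), and none was called by limma. Of the summed RPKM of the pair, Dynlrb2 made up 42.5%, 86.1%, 73.1% and 76.4% in NSC 1 to 4 and between 0.0875% and 3.17% in the 16 progenitor libraries. Dynlrb2 thus led the pair in NSC 2 to 4, and Dynlrb1 led it in NSC 1, by less, and in every progenitor library.

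Dynlrb2 and the axonemal intermediate chain Dnaic2 were called lower in 3 or more progenitors. Dnaic2 would not have passed the filter on the progenitor libraries alone. The promoters of both genes shared a stretch of sequence. Both are shown because the run GTTGCCTAGCAAC, which starts with the word GTTGCC, was found before the start of each. In the stretches below, from RefSeq on GRCm38.p6, each read in the direction that shows the word, the capitals mark GTTGCC.
Dynlrb2, chr8:116504947-116504986, plus strand, 51 to 46 bases before the start: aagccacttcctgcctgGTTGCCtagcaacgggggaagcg
Dnaic2, chr11:114727376-114727415, minus strand, 26 to 21 bases before the start: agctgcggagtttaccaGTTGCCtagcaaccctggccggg
The 13-base run was held by 17 of 27025 promoters (0.0629%), and among the members only by these 2. The run was chosen after the sequences were seen, and a match of letters is not a measured binding site.

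**Figure D3:**
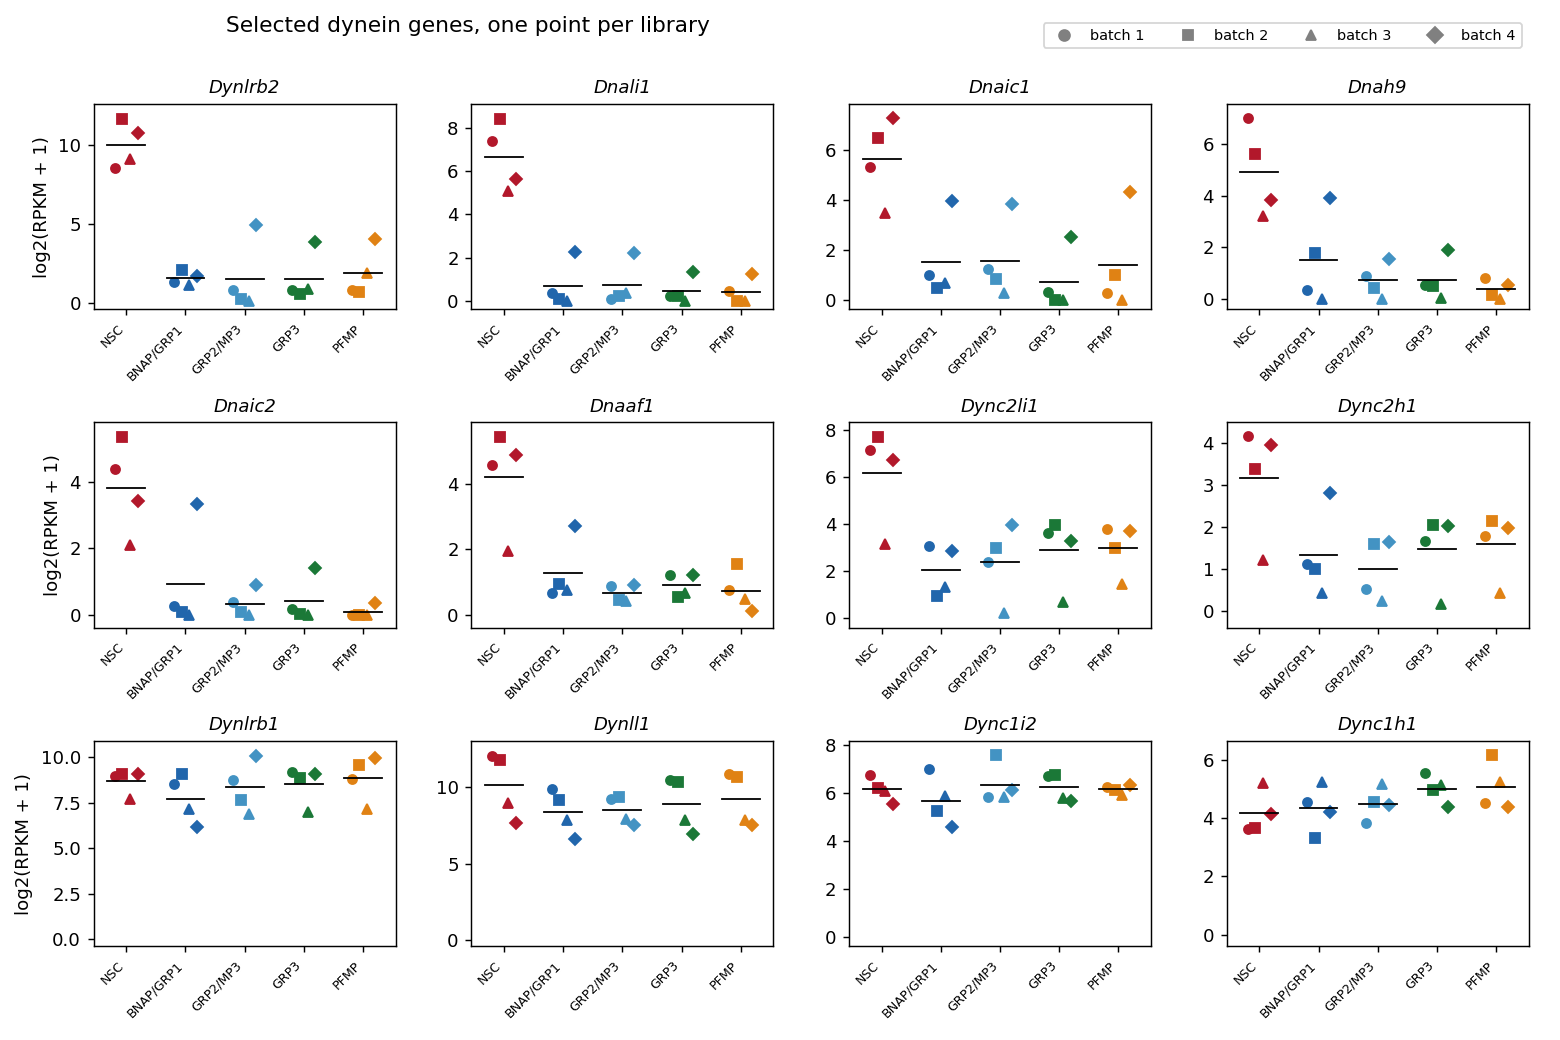
Levels of selected dynein genes as log2(RPKM + 1), with 1 point for each of the 20 libraries, its shape giving the batch, and a line at the mean of each population. For Dynlrb2 and Dnali1 every NSC point lies above every progenitor point, while the points of Dync1h1, between 8.88 and 69.7 RPKM, overlap in all populations.

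Among the axonemal light chains, Dnali1, a light intermediate chain of the inner arms, was lower in all 4 progenitors. It lies at chr4:125055338-125065703 on the minus strand. It was listed at 169, 343, 32.3 and 49.3 RPKM in NSC 1 to 4, with a mean of 148 ± 143 (SD, n = 4). The progenitor libraries held 0.275, 0.0517, 0 and 3.71 RPKM in BNAP/GRP1 1 to 4, 0.0671, 0.150, 0.279 and 3.69 in GRP2/MP3, 0.185, 0.152, 0.00643 and 1.55 in GRP3 and 0.348, 0, 0 and 1.34 in PFMP. No progenitor library reached the lowest NSC library, and the highest library of each progenitor was that of batch 4. The fitted log2 changes were −5.97, −5.92, −6.18 and −6.22 (SE 0.75), with limma's adjusted p of 0.00024, 0.00016, 0.0001 and 8.2e-05.

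The other axonemal light chains were not called. Dnal1, which binds the motor domain of an outer arm heavy chain, was listed at 24.2, 21.6, 1.99 and 9.86 RPKM in NSC 1 to 4, with log2 fold changes of −2.06, −2.43, −2.05 and −1.91 (SE 0.76). With the replicate block it was called lower in BNAP/GRP1, GRP2/MP3 and GRP3. Dnal4 was listed at 178, 185, 24.3 and 14.5 RPKM in NSC 1 to 4 and at 4.83 to 46.9 RPKM in the progenitors, so that NSC 3 and NSC 4 lay within the progenitor range. Its log2 fold changes were −1.72, −2.10, −1.48 and −1.88 (SE 0.80), and with the block it was called lower in GRP2/MP3 only.

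The intermediate chains Dnaic1 and Dnaic2 tether the outer arm to the microtubule doublet. Dnaic2, at chr11:114727408-114757889 on the plus strand, was listed at 19.6, 39.8, 3.29 and 9.66 RPKM in NSC 1 to 4 (mean 18.1 ± 16.0, SD, n = 4). It held 0.198, 0.0609, 0 and 9.09 RPKM in BNAP/GRP1, 0.290, 0.0591, 0 and 0.843 in GRP2/MP3, 0.129, 0.0238, 0 and 1.64 in GRP3, and 0, 0, 0 and 0.271 in PFMP. Only BNAP/GRP1 overlapped with NSC, through its library 4. Dnaic2 would not have passed the filter on the progenitor libraries alone, which limits its calls. Against NSC the log2 fold changes were −2.89, −3.48, −3.41 and −3.72 (SE 0.73), with limma's adjusted p of 0.083, 0.016, 0.020 and 0.0085, and with the block 0.014, 0.0023, 0.0031 and 0.0013. The call in GRP2/MP3 was lost without GRP2/MP3 1, 2 or 3 or NSC 1 or 2, that in GRP3 without GRP3 1, 2 or 3 or NSC 1 or 2, and that in PFMP without NSC 2. A call in BNAP/GRP1 was gained without BNAP/GRP1 4 or NSC 3.

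Dnaic1, chosen for full values after they were seen, lies at chr4:41569775-41638158 on the plus strand. It was listed at 39.5, 88.3, 10.02 and 153 RPKM in NSC 1 to 4 (mean 72.7 ± 62.5, SD, n = 4). BNAP/GRP1 held 0.979, 0.384, 0.603 and 14.3 RPKM, GRP2/MP3 1.31, 0.745, 0.212 and 13.2, GRP3 0.229, 0, 0 and 4.74 and PFMP 0.185, 0.951, 0 and 18.7. In each batch NSC was above every progenitor, and only GRP3 kept clear of the lowest NSC library. The log2 fold changes were −4.12, −4.11, −4.93 and −4.26 (SE 1.07), with limma's adjusted p of 0.098, 0.079, 0.022 and 0.059. With the replicate block all 4 passed, at 7.0e-05, 5.1e-05, 6.3e-06 and 3.1e-05. The GRP3 call was lost without GRP3 1, 2 or 3 or NSC 1, 2 or 4.

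Of the 5 outer arm heavy chains, Dnah9 was the most abundant in NSC. At chr11:65831282-66168551 on the minus strand, it was listed at 126, 47.6, 8.22 and 13.1 RPKM in NSC 1 to 4 (mean 48.8 ± 54.5, SD, n = 4). BNAP/GRP1 held 0.280, 2.405, 0 and 14.2 RPKM, GRP2/MP3 0.864, 0.362, 0 and 1.93, GRP3 0.465, 0.405, 0.0381 and 2.78 and PFMP 0.756, 0.126, 0 and 0.472. BNAP/GRP1 4 was above NSC 3 and NSC 4, and no other progenitor library reached an NSC library. Fitted log2 fold changes were −3.39, −4.18, −4.15 and −4.52 (SE 0.85), with limma's adjusted p of 0.076, 0.012, 0.014 and 0.0056, and 0.012 in BNAP/GRP1 with the block. The GRP2/MP3 call was lost without GRP2/MP3 2 or 3 or NSC 1 or 2, and the GRP3 call without GRP3 1, 2 or 3 or NSC 1 or 2, while a BNAP/GRP1 call was gained without BNAP/GRP1 4 or NSC 3.

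The other outer arm heavy chains were low everywhere. Dnah5, which is expressed with Dnah9 in many motile cilia, was listed at 3.58, 1.92, 0.396 and 4.19 RPKM in NSC 1 to 4, with log2 fold changes of −0.85, −1.43, −1.36 and −1.49 that were not called. Dnah11 was listed at 1.22, 1.29, 0.0754 and 2.74 RPKM in NSC and changed by −0.07, −0.81, −0.57 and −0.87, also not called. Dnah8 and Dnah17, which are known from sperm flagella, were not tested and ran from 0.0258 to 3.35 RPKM and from 0.0119 to 9.99 RPKM over the 20 libraries. Both were highest in BNAP/GRP1 4, the library of least estimated relative depth.

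The inner arm heavy chains had lower medians in progenitors than in NSC, at −1.14, −1.90, −1.61 and −1.84 over their 12 entries. Dnah6, chosen for full values after they were seen, lies at chr6:73017606-73221651 on the minus strand. Of these entries only Dnah6 was called in a progenitor alone without the replicate block. Dnah6 would not have passed the filter on the progenitor libraries alone, which limits its calls. It was listed at 7.94, 12.2, 1.44 and 11.2 RPKM in NSC 1 to 4. BNAP/GRP1 held 0.0983, 0.751, 0 and 4.38 RPKM, GRP2/MP3 0.152, 0.0673, 0.0120 and 2.43, GRP3 0.124, 0.0713, 0.0183 and 1.06 and PFMP 0.276, 0.00477, 0.0123 and 0.171. GRP3 and PFMP did not overlap with NSC, and the batch 4 libraries of BNAP/GRP1 and GRP2/MP3 were above NSC 3. On the log2 scale the changes were −2.10, −2.42, −2.61 and −2.80 (SE 0.63), with limma's adjusted p of 0.23, 0.080, 0.049 and 0.027, and 0.019 and 0.0049 in BNAP/GRP1 and GRP2/MP3 with the block. Both calls were lost without any of NSC 1, 2 and 4 or without any library of the progenitor itself.

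Dnah1, Dnah2, Dnah10 and Dnah12 were not called in a progenitor alone, and each was as high in BNAP/GRP1 4 as in NSC libraries. Dnah2 was listed at 4.56, 6.51, 1.04 and 7.54 RPKM in NSC 1 to 4, with log2 fold changes of −1.63, −2.05, −1.98 and −2.22 (SE 0.58). Dnah12 was listed at 5.62, 7.91, 1.10 and 35.5 RPKM in NSC, with −1.91, −2.50, −2.54 and −2.65 (SE 0.76). Dnah10 (5.41, 7.78, 2.26 and 8.62 RPKM in NSC) changed by −1.45, −2.37, −2.27 and −2.64 (SE 0.66), and Dnah1 (3.93, 4.39, 0.683 and 3.07 RPKM) by −1.22, −1.75, −1.66 and −1.80 (SE 0.51). BNAP/GRP1 4 held 4.38, 5.21, 9.85 and 7.70 RPKM of Dnah1, Dnah2, Dnah10 and Dnah12, which for Dnah10 was above every NSC library. The other progenitor libraries held at most 0.559, 1.09, 1.95 and 1.84 RPKM of them. With the replicate block all 4 were called lower in GRP2/MP3, GRP3 and PFMP and none of them in BNAP/GRP1. Dnah3 ran from 0 to 5.47 RPKM over the 20 libraries and was not tested.

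The inner arm genes Dnah7a, Dnah7b and Dnah7c are near copies on chromosome 1, so reads may be split between them and their separate values are uncertain. Dnah7a was listed at 5.60, 11.6, 1.17 and 33.3 RPKM in NSC 1 to 4, at 0.783, 3.61, 0.0384 and 22.9 in BNAP/GRP1, 2.10, 0.576, 0 and 1.89 in GRP2/MP3, 1.25, 0.508, 0 and 3.99 in GRP3 and 1.97, 0.254, 0 and 1.86 in PFMP. Dnah7b was listed at 4.53, 11.1, 2.22 and 24.2 RPKM in NSC, 0.882, 5.81, 0.00348 and 41.4 in BNAP/GRP1, 0.817, 0.174, 0 and 4.37 in GRP2/MP3, 1.62, 1.18, 0.188 and 9.33 in GRP3 and 1.75, 5.47, 0.127 and 0.461 in PFMP. Dnah7c was the lowest of them, at 2.33, 3.94, 0.359 and 6.96 RPKM in NSC and at most 3.80 RPKM in a progenitor. All 3 overlapped between NSC and each progenitor, with NSC 3 low and BNAP/GRP1 4 high. Their log2 fold changes ran from −0.83 to −2.30, and none was called by limma, while the block called Dnah7a lower in GRP2/MP3 and PFMP.

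The promoter of each of these genes held the word GTTGCC. The stretch around it is shown for all 3 to compare them, with the word in capitals, from RefSeq on GRCm38.p6.
Dnah7a, chr1:53706962-53707001, minus strand, 200 to 195 bases before the start: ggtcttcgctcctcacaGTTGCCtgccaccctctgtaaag
Dnah7c, chr1:46425282-46425321, plus strand, 219 to 214 bases before the start: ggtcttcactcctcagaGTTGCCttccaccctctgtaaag
Dnah7b, chr1:46066673-46066712, plus strand, 163 to 158 bases before the start: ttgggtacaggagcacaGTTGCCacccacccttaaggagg
Of the 40 bases, 37 were the same in Dnah7a and Dnah7c, and the stretch of Dnah7b differed from both.

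Dnah14 did not share the pattern. Its entry ENSMUSG00000104003, which has no position in GENCODE vM21, was listed at 9.95, 6.10, 4.33 and 12.9 RPKM in NSC 1 to 4, 12.4, 7.54, 2.42 and 11.4 in BNAP/GRP1, 11.3, 15.3, 2.14 and 20.8 in GRP2/MP3, 15.6, 20.4, 2.10 and 31.9 in GRP3 and 44.9, 15.5, 2.62 and 14.6 in PFMP. All populations overlapped, and the library of batch 3 was the lowest in each. The log2 fold changes were −0.06, 0.31, 0.66 and 0.72 (SE 0.82), none called by limma. The entry ENSMUSG00000102669 was at most 6.91 RPKM, in BNAP/GRP1 4, and ENSMUSG00000047369, at chr1:181576559-181815774 on the plus strand, at most 5.53 RPKM in the same library. What the separate identifiers stand for is not given in the sources used here.

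Dnah2os, antisense to Dnah2, ran from 0 to 7.97 RPKM. Whether counting used strand is not stated, so its reads and those of Dnah2 cannot be told apart.

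Of the assembly factors, Dnaaf1, a leucine-rich repeat protein needed for both arms, was lower in all 4 progenitors. At chr8:119575235-119598454 on the plus strand, it was listed at 22.8, 42.1, 2.84 and 28.1 RPKM in NSC 1 to 4. BNAP/GRP1 held 0.598, 0.909, 0.701 and 5.49 RPKM, GRP2/MP3 0.820, 0.380, 0.329 and 0.876, GRP3 1.30, 0.454, 0.574 and 1.34 and PFMP 0.693, 1.95, 0.402 and 0.0919. Only BNAP/GRP1 4 was above the lowest NSC library. Against NSC the log2 fold changes were −2.93, −3.54, −3.30 and −3.47 (SE 0.68), with limma's adjusted p of 0.044, 0.0075, 0.014 and 0.0084. The BNAP/GRP1 call was lost without NSC 1, 2 or 4 or BNAP/GRP1 1, 2 or 3, the GRP3 call without NSC 1, 2 or 4 or GRP3 2 or 3, and the GRP2/MP3 and PFMP calls without NSC 2.

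In NSC the other assembly factors were on average lower in level than Dnaaf1. None of them was called in a progenitor alone without the replicate block, while Dnaaf3 was called lower for the mean of the 4 progenitors. Dnaaf3 was listed at 4.66, 9.11, 2.24 and 3.38 RPKM in NSC 1 to 4, with log2 fold changes of −1.39, −1.88, −2.16 and −2.11 (SE 0.62). Dnaaf2 was listed at 7.67, 10.3, 5.04 and 3.52 RPKM in NSC and at 0.687 to 8.54 RPKM in the progenitors, with −0.72, −1.14, −0.91 and −1.05 (SE 0.56). Dnaaf5 was listed at 16.7, 6.26, 2.13 and 2.90 RPKM in NSC and at 0.389 to 4.34 RPKM in the progenitors, with −1.11, −1.25, −1.34 and −1.60 (SE 0.62). Dnaaf2 overlapped with NSC in every progenitor, and Dnaaf5 in all but PFMP.

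Within the cytoplasmic class, the dynein-2 subunits had negative log2 fold changes in every progenitor, smaller than those of Dynlrb2, and neither passed the test in a progenitor alone without the replicate block. Dync2li1, a light intermediate chain of the ciliary return motor, lies at chr17:84626496-84655588 on the plus strand and was listed at 142, 205, 7.80 and 105 RPKM in NSC 1 to 4 (mean 115 ± 82.4, SD, n = 4). BNAP/GRP1 held 7.33, 0.907, 1.55 and 6.24 RPKM, GRP2/MP3 4.21, 6.90, 0.175 and 14.6, GRP3 11.2, 14.5, 0.631 and 8.58 and PFMP 12.8, 6.88, 1.78 and 12.2. NSC 1, 2 and 4 stood above every progenitor library, and NSC 3 lay within the range of GRP2/MP3, GRP3 and PFMP. The fit gave log2 fold changes of −4.13, −3.79, −3.29 and −3.18 (SE 0.99). Limma's adjusted p was 0.054, 0.078, 0.18 and 0.20, and with the block 0.00027, 0.00048, 0.0022 and 0.0028, so that all 4 passed. Without NSC 3 all 4 passed with no block as well, and BNAP/GRP1 also without BNAP/GRP1 4.

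Dync2h1, the dynein-2 heavy chain, lies at chr9:6928503-7184446 on the minus strand and was listed at 16.8, 9.41, 1.33 and 14.4 RPKM in NSC 1 to 4 (mean 10.5 ± 6.84, SD, n = 4). BNAP/GRP1 held 1.17, 0.990, 0.339 and 6.01 RPKM, GRP2/MP3 0.436, 2.05, 0.173 and 2.12, GRP3 2.16, 3.12, 0.117 and 3.07 and PFMP 2.47, 3.45, 0.350 and 2.91. NSC 1, 2 and 4 were above all progenitor libraries, and NSC 3 was not. The log2 fold changes were −1.84, −2.18, −1.70 and −1.59 (SE 0.73), with limma's adjusted p of 0.62, 0.29, 0.69 and 0.77, and with the block 0.048, 0.011, 0.063 and 0.088.

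The dynein-1 subunits gave no difference past the threshold, and none had an unadjusted p under 0.05 in limma's fit with or without the block. Dync1h1, the heavy chain, lies at chr12:110601452-110666945 on the plus strand and was listed at 11.4, 11.6, 35.6 and 16.6 RPKM in NSC 1 to 4 (mean 18.8 ± 11.5, SD, n = 4). BNAP/GRP1 held 22.5, 8.88, 36.8 and 17.3 RPKM, GRP2/MP3 13.3, 22.1, 34.5 and 20.5, GRP3 45.5, 29.9, 34.2 and 19.9 and PFMP 22.0, 69.7, 36.7 and 19.6. All groups overlapped, and the 5 libraries of batch 3 were within 34.2 to 36.8 RPKM. On the log2 scale the changes were 0.17, 0.33, 0.85 and 0.91 (SE 0.56). Of the summed RPKM of the heavy chains of dynein-1 and dynein-2, Dync2h1 made up 59.5%, 44.9%, 3.60% and 46.5% in NSC 1 to 4 and from 0.341% to 25.8% in the progenitors, with the highest in BNAP/GRP1 4.

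Dync1i2, the intermediate chain of most tissues, lies at chr2:71211706-71263303 on the plus strand. It was listed at 107, 73.6, 66.7 and 45.4 RPKM in NSC 1 to 4, 128, 36.9, 56.9 and 23.0 in BNAP/GRP1, 55.5, 189, 56.6 and 69.0 in GRP2/MP3, 103, 107, 54.3 and 50.4 in GRP3 and 75.6, 68.7, 58.9 and 79.0 in PFMP. The populations overlapped, and the log2 fold changes were −0.47, 0.19, 0.08 and 0.00 (SE 0.57). Dync1i1, the intermediate chain best known from neurons, ran from 0.326 to 9.57 RPKM in NSC and from 0 to 31.0 RPKM in the progenitors, with log2 fold changes of 1.10, 0.79, 0.40 and 1.21 (SE 1.09). The light intermediate chains Dync1li1 and Dync1li2, which bind cargo adaptors, ran from 4.78 to 40.8 and from 5.35 to 17.8 RPKM in NSC. Their log2 fold changes were 0.40, 0.64, 0.67 and 0.74 (SE 0.77) for Dync1li1 and −0.15, 0.10, 0.55 and 0.81 (SE 0.53) for Dync1li2.

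Other shared light chains were not called in either fit. Dynll1, which also has many partners outside dynein and was chosen after its values were seen, was listed at 4222, 3496, 490 and 204 RPKM in NSC 1 to 4, 920, 568, 233 and 94.8 in BNAP/GRP1, 600.4, 665, 236 and 185 in GRP2/MP3, 1377, 1259, 233 and 122 in GRP3 and 1870, 1625, 232 and 184 in PFMP. Batches 3 and 4 were below batches 1 and 2 in every population, and NSC was the highest library of each batch. Its log2 fold changes were −1.75, −1.60, −1.22 and −0.87 (SE 1.14). Dynll2 ran from 23.3 to 59.2 RPKM in NSC and from 16.7 to 261 RPKM in the progenitors, with −0.42, 0.70, 0.58 and 0.64 (SE 0.78). Dynlt3, on chromosome X, ran from 3.77 to 68.7 RPKM in NSC and from 10.2 to 101 RPKM in the progenitors, with 0.18, 0.33, 0.47 and 0.39 (SE 0.80).

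The Tctex light chains Dynlt1a, Dynlt1b, Dynlt1c and Dynlt1f are near copies on chromosome 17, and their separate values are uncertain in the same way as those of Dnah7. Dynlt1b was the most abundant in NSC, with a mean of 592 ± 746 RPKM (SD, n = 4) and log2 fold changes of −2.31, −1.20, −1.70 and −1.32 (SE 1.07). The NSC means of Dynlt1f, Dynlt1a and Dynlt1c were 143 ± 137, 58.2 ± 51.7 and 28.3 ± 14.1 RPKM (SD, n = 4). The log2 fold changes of these 3 lay between −1.41 and −0.37. Every one of them overlapped with NSC in each progenitor.

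Other genes that work with axonemal dynein were taken from a list of 30 docking and assembly genes, of which 22 were in the table and 20 were tested. Limma called 9, 11, 10 and 10 of the 20 lower in the progenitors and none higher. Of all genes 0.76%, 1.12%, 1.04% and 1.14% were called lower. With the replicate block it called 14, 14, 13 and 15, beside 2.02%, 2.91%, 2.33% and 2.61% of all genes. How many of the 20 would have passed the filter on the progenitor libraries alone was not determined, so the counts carry its limit. The median log2 fold changes of the 20 were −3.12, −3.55, −3.27 and −3.44. Wdr78, an intermediate chain of an inner arm, had the highest NSC mean, with 679.9, 92.9, 14.9 and 19.7 RPKM in NSC 1 to 4 and at most 22.5 RPKM in a progenitor, that of BNAP/GRP1 4. Pih1d2, a relative of the PIH proteins that help fold dynein arms, was listed at 274, 222, 42.6 and 137 RPKM in NSC 1 to 4 and at no more than 12.7 RPKM in a progenitor. Its log2 fold changes were −5.05, −6.09, −5.54 and −5.76 (SE 0.74). Zmynd10, an assembly factor of both arms, was listed at 90.8, 325, 31.0 and 62.0 RPKM in NSC and at no more than 12.2 RPKM elsewhere.

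Dynein-2 subunits of other names (Wdr34, Wdr60 and Tctex1d2) gave 1 call, Wdr34, in GRP2/MP3 and in GRP3 and none in BNAP/GRP1 and PFMP. With the replicate block all 3 were called lower in every progenitor. For these and the next lists, 0.76%, 1.12%, 1.04% and 1.14% of all genes were called lower. With the block the share was 2.02%, 2.91%, 2.33% and 2.61%. The 12 genes of dynactin, the activator of dynein-1, gave no call in either fit, with medians of −0.51, 0.05, 0.30 and 0.08. Of 14 tested dynein-1 adaptors and regulators, Nudc was called lower in GRP3, and in all 4 progenitors with the block. It was listed at 594, 1732, 141 and 591 RPKM in NSC 1 to 4.

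Summed markers of ependymal cells were also lower in the progenitors than in NSC. A list of 11 ependymal genes outside the axoneme summed to between 1612 and 16318 RPKM in NSC (median 6353) and between 50.5 and 641 RPKM in the progenitor libraries (median 114). In BNAP/GRP1 the sum was at most 257 RPKM, while BNAP/GRP1 4 had an axonemal median of 7.70 RPKM, so the 2 lists did not move together there. Limma called 8, 8, 8 and 9 of the 11 lower in the progenitors, beside 0.76%, 1.12%, 1.04% and 1.14% of all genes. With the replicate block it called 10, 10, 9 and 10, beside 2.02%, 2.91%, 2.33% and 2.61%. How many of the 11 would have passed the filter on the progenitor libraries alone was not determined, so the counts carry its limit. Foxj1, the regulator of motile ciliogenesis, was listed at 141, 352, 34.3 and 33.1 RPKM in NSC 1 to 4 and at no more than 9.42 RPKM in a progenitor library. Of 8 genes of neural stem cells and astroglia limma called none, with median log2 fold changes of −1.38, −1.45, −1.26 and −0.83. Their summed RPKM had a median of 4450 in NSC and of 1895, 1206, 7050 and 8269 in the progenitors, so GRP3 and PFMP were higher by the sum. With the block limma called Sox2 lower in GRP2/MP3 and Thbs4 lower for the mean of the progenitors. Of 7 choroid plexus genes 5 were tested, with median log2 fold changes of −1.50, −2.18, −1.93 and −2.07. Limma called 0, 0, 0 and 1 of them lower, and 1, 3, 2 and 3 with the block, and none higher. The part of ependymal or choroid plexus cells in the NSC gate in these results was not tested.

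Within a batch, each progenitor can be set against the NSC library of the same number. The median difference over the 27 axonemal genes was −2.24, −2.08, −0.78 and 0.17 in batches 1 to 4 for BNAP/GRP1 and −2.18, −2.50, −0.78 and −1.78 for GRP2/MP3. It was −2.06, −2.35, −0.91 and −1.39 for GRP3 and −2.10, −2.40, −0.83 and −2.04 for PFMP. The axonemal class was thus lower than NSC in every batch of GRP2/MP3, GRP3 and PFMP, least so in batch 3, and in all batches but the fourth of BNAP/GRP1. In BNAP/GRP1 4 only 11 of the 27 axonemal genes were below NSC 4. The median of all genes tested was 1.53 in that pair, so the axonemal median stood below it.

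The cytoplasmic medians changed sign between batches. They were 0.13, −0.97, −0.47 and −1.45 for BNAP/GRP1, −0.63, −1.59, −0.62 and 0.44 for GRP2/MP3, −0.06, −0.76, −0.62 and 0.06 for GRP3 and −0.26, −0.39, −0.41 and 0.26 for PFMP in batches 1 to 4. All genes tested had medians of −0.29, 0.11 and −0.88 in batch 4 for GRP2/MP3, GRP3 and PFMP.

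**Figure D4:**
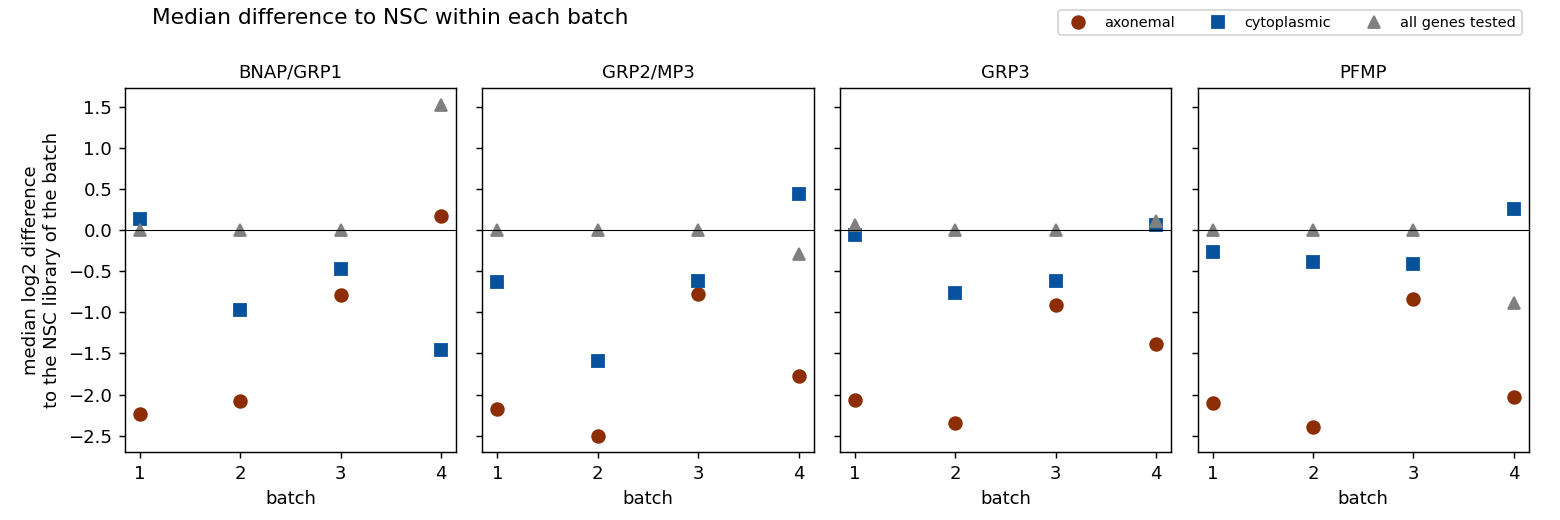
Median log2(RPKM + 1) difference between each progenitor library and the NSC library of the same batch, over the 27 axonemal genes, the 16 cytoplasmic genes and all genes tested. The axonemal points lie below 0 in 15 of 16 pairs, from −2.50 to −0.78, and at 0.17 in BNAP/GRP1 4, while the cytoplasmic points lie on both sides of 0.

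Batches were also compared with the populations held in the model. Against batches 1 and 2, batch 3 was lower for 4 axonemal genes, Dnah14 (ENSMUSG00000104003, −2.01), Dnah7a (−1.30), Dnal1 (−1.46) and Dnal4 (−1.42). It was lower for 6 cytoplasmic ones, Dync1i1 (−2.62), Dync2h1 (−1.45), Dync2li1 (−2.47), Dynll1 (−2.28), Dynll2 (−1.70) and Dynlrb1 (−1.67), and higher for none, where 15.8% of all genes were called lower and 13% higher. Batch 4 was higher for 9 axonemal genes, from 0.94 in Dnah6 to 2.69 in Dnaic1, and lower for Dnal4 (−1.70). Among the cytoplasmic genes it was higher for Dync1li1 (1.65) and Dynlrb2 (2.31) and lower for Dynll1 (−3.11) and Dynlt3 (−2.08), where 37.4% of all genes were called higher and 7.25% lower. The axonemal genes raised in batch 4 therefore stood at 9 of 22 tested, near the share of all genes.

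The progenitors did not differ from each other past the threshold. In the 6 direct comparisons between progenitors, limma called 0 members, where 0% of all genes were called in each. At an unadjusted p under 0.05 there were 0 members, beside 5 to 211 genes lower and 79 to 1260 higher of 27614. With the replicate block 0 members were called, where 0 of all genes were. By unadjusted p under 0.05, 1 member passed in BNAP/GRP1 against GRP2/MP3, beside 146 genes lower and 1405 higher of 27614. Against PFMP it was 2 members, beside 679 genes lower and 4543 higher.

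How often all 4 libraries of NSC lay above all 4 of a progenitor gives a count that needs no model. Over the 27 axonemal genes this held for 1, 10, 9 and 12 in BNAP/GRP1, GRP2/MP3, GRP3 and PFMP, and over the 16 cytoplasmic genes for 2, 1, 1 and 1. Of all genes tested it held for 1.2%, 2.93%, 2.34% and 3.51%. No member had all 4 NSC libraries below all 4 of a progenitor. The BNAP/GRP1 count was held down by its library 4, which was above the lowest NSC library for most axonemal genes.

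The promoters of 33 of the 41 names were found in RefSeq, each as 300 bases, and were searched on both strands. GTTGCC, a core word of the X-box that RFX factors bind, was in 7 of 22 axonemal promoters (Dnaaf2, Dnaaf5, Dnah10, Dnah7a, Dnah7b, Dnah7c and Dnaic2), or 31.8%. It was in 5 of 11 cytoplasmic ones (Dync1i1, Dync1i2, Dync2h1, Dynll1 and Dynlrb2), or 45.5%, and in 3821 of 27025 genes, or 14.1%. The promoters of Dnah7a and Dnah7c, with their near-identical stretches, do not count as separate cases. The forkhead word TGTTTAC was in 1 axonemal promoter, that of Dnah17 (4.55%), in 0 cytoplasmic ones and in 4.05% of all. The word was thus present both in genes that were lower in the progenitors, such as Dynlrb2 and Dnaic2, and in genes that were not called, such as Dync1i2 and Dynll1.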

How the data were processed

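The authors deposited RPKM values for 45705 genes in 20 mouse libraries. Per the submitters' processing notes, FastQC 0.11.9, cutadapt 3.4, STAR 2.6.1, Salmon 1.9.0 and DESeq2 1.26.0 were used on GRCm38. The read totals, gene lengths, strand setting and annotation behind the RPKM are not given in the sources used here, so absolute depth is unknown. Only relative depth was estimated, from ratios of RPKM between libraries. How reads shared by near copies were assigned also affects their RPKM.

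Values were taken as log2(RPKM + 1). The 27614 genes that reached 1 RPKM in 4 or more libraries were fitted with limma 3.58.1 under R 4.3.3, by lmFit and a trended eBayes, with 1 mean per population. The adjusted p is that of Benjamini and Hochberg over all genes tested, with 0.05 as the threshold. The methods of the study use DESeq2 on counts, which are not analysed here. The batch numbers come from the labels. Residuals from the population means correlated at a median of 0.337, 0.262, 0.769 and 0.581 among the libraries of batches 1 to 4 and −0.204 between different batches and populations, so the batch entered as a replicate block in an alternative fit. Alternatives also took 0.1 as the pseudocount, dropped the filter or asked for a mean of 5 RPKM, rescaled by quantiles or by median of ratios, dropped the trend, fitted only the populations compared, or left out each library or batch. Batch 3 left out with the block was added after the data were seen.

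Members and lists were chosen with earlier results of these data known. Full values are given for members called in at least 3 progenitors, up to 3 of highest NSC mean per role, for the 2 members of highest mean in a role with none, and for Dynlrb1, Dynlrb2, Dync1h1, Dync2h1 and the Dnah7 copies. Examples from other lists are those of highest mean in NSC. Positions are from GENCODE vM21, found for 41 of the 43 members, and promoters (250 bases before and 50 after the start) from RefSeq. The fit was tested on simulated data for PFMP against NSC, in which 200 of 27614 genes were moved by −6 on the log2 scale. Of these 183 were called, with 13 of the others. The median difference of the axonemal genes in PFMP was −1.88, so this recovery does not show how often changes of that size are called. Recovery for low genes, or with libraries that correlate within batches, is not shown either. Figures were drawn with Python 3.11.15 and matplotlib 3.10.9. All value columns of the table were used, and raw reads and protein sequences were not used here.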

Additional observations from a re-analysis of the deposited data

Results flagged for a closer look

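Within each population the highest or lowest of the 4 libraries was compared with the nearest of the others by Dixon's ratio, for the members with full values and the class medians. Of 100 groups examined, 27 had a library that stood apart. For values that are normal and independent, chance gives about 1 in 20. The ratio was taken on RPKM, which are skewed toward high values, and the groups share the same libraries. That rate therefore does not hold here, and the count of 27 is a description without a test.

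In 24 of these groups the library was that of batch 4, as the highest of a progenitor. BNAP/GRP1 4 stood apart at 5.49 RPKM for Dnaaf1, 9.09 for Dnaic2, 14.3 for Dnaic1, 3.71 for Dnali1, 14.2 for Dnah9, 22.9 for Dnah7a, 41.4 for Dnah7b and 6.01 for Dync2h1, and at 7.70 for the axonemal median. GRP3 4 stood apart at 13.5 RPKM for Dynlrb2, 1.64 for Dnaic2, 4.74 for Dnaic1, 1.55 for Dnali1, 2.78 for Dnah9, 9.33 for Dnah7b and 1.06 for Dnah6, and at 1.57 for the axonemal median. GRP2/MP3 4 did so at 29.8 RPKM for Dynlrb2, 13.2 for Dnaic1, 3.69 for Dnali1 and 2.43 for Dnah6, and PFMP 4 at 16.0 RPKM for Dynlrb2, 18.7 for Dnaic1 and 0.271 for Dnaic2. The remaining ones were GRP2/MP3 2 at 189 RPKM for Dync1i2, NSC 1 at 9.57 RPKM for Dync1i1 and NSC 3 at 208 RPKM for Dynlrb1, the lowest of its group.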

How the results depend on the processing

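Dynlrb2 and Dnali1 kept their calls best, Dynlrb2 in 21 of 21 alternatives in each progenitor and Dnali1 in 19, 21, 21 and 21 (order BNAP/GRP1, GRP2/MP3, GRP3, PFMP, used throughout). The count of axonemal genes called lower, 2, 4, 6 and 5, moved more. With the replicate block, in which the batch pairs the libraries, it was 7, 13, 11 and 11 (cytoplasmic 3, 3, 2 and 2), and 10 and 9 in GRP2/MP3 and PFMP without batch 3 (cytoplasmic 2, 3, 2 and 2). Leaving out 1 library or batch gave 0 to 10, 1 to 11, 1 to 9 and 1 to 10 axonemal calls and 1 to 14 for the mean of the progenitors, and 1 to 2, 1 to 3, 1 to 2, 1 to 2 and 1 to 3 cytoplasmic ones. Quantile normalization gave 13, 12, 13 and 11 axonemal calls, beside 1.69%, 1.63%, 1.68% and 1.41% of all genes called lower. It gave 2 cytoplasmic calls in BNAP/GRP1. Median-of-ratios scaling gave 5, 7 and 9 axonemal calls in BNAP/GRP1, GRP2/MP3 and PFMP, beside 1.03%, 1.25% and 1.38% of all genes. It gave 2 cytoplasmic calls in BNAP/GRP1. With only the populations compared, which leaves fewer libraries, the axonemal count was 1 in each, beside 0.217%, 0.406%, 0.406% and 0.344% of all genes. With a pseudocount of 0.1 it was 1, 2 and 2 in BNAP/GRP1, GRP2/MP3 and GRP3, beside 0.272%, 0.63% and 0.558% of all genes. With that pseudocount 8 axonemal genes differed in batch 3, where 6685 of 27614 genes were lower and 3994 higher. The median of the tested axonemal genes was then −2.78, −3.49, −3.42 and −3.85, beside −1.42, −2.15, −2.02 and −2.01. With no filter the axonemal count was 1 in BNAP/GRP1 and 7 for the mean of the progenitors, beside 0.391% and 1.06% of all genes. The stricter filter, which leaves fewer genes, gave 1 axonemal and 2 cytoplasmic calls in BNAP/GRP1, beside 1.66% of all genes. For the mean it gave 4 axonemal calls, beside 3.23%. Its axonemal medians were −2.93, −3.54, −3.30 and −3.47. The cause of the other moves was not tested.

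Signs changed only in values that were not called. Leaving out 1 library gave −0.14 to 0.51 for Dync1h1 and −0.29 to 0.37 for Dnah14 in BNAP/GRP1, −0.22 to 0.57 for Dync1i2, −0.95 to 0.12 for Dynlrb1 and −0.025 to 0.91 for Dnah14 in GRP2/MP3, −0.12 to 0.29 for Dync1i2, −0.083 to 1.06 for Dync1i1 and −0.50 to 0.34 for Dynlrb1 in GRP3, and −0.26 to 0.21 for Dync1i2 and −0.20 to 0.73 for Dynlrb1 in PFMP. The median of the cytoplasmic genes in GRP3 ran from −0.70 to −0.022. Without batch 3 and with the block, Dnah14 was 0.13 in BNAP/GRP1 and Dynlrb1 0.0076 in GRP3, which quantile normalization put at 0.22. Median-of-ratios scaling put Dync1i2 in GRP3 at −0.048. The estimated relative depth was least in BNAP/GRP1 4, at 0.0395, where 38191 genes were above 0, and no absolute depth is known. What depth contributed to the low axonemal values was not tested.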
